A study of Bos taurus with 30 samples.

Results

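Bovine embryos whose transcription was blocked with α-amanitin were collected at the 8-cell stage, and their open chromatin was set against that of untreated 4-cell embryos, to ask whether chromatin of blocked 8-cell embryos still has the pattern of the 4-cell stage or has moved on from it. The comparison takes the 3 ATAC-seq peak lists of 8-cell transcription blocked embryos (TBE) and the 3 of 4-cell control embryos, 6 of the 30 peak lists of the series. The 3 lists of untreated 8-cell embryos, and those of germinal vesicle (GV) oocytes and morulae, served as reference points. All embryos were produced in vitro, from cumulus oocyte complexes matured in culture and frozen semen of a Holstein bull. The 4-cell embryos were collected 2 days post-insemination without treatment. The 8-cell TBE were collected 3 days post-insemination, after α-amanitin at 50 µg/ml had been added to the culture medium on day 1, and the untreated 8-cell embryos, the other part of the same collections, were cultured alongside without it. Each library was made from a pool of embryos holding at least 500 cells, and the 3 libraries of a stage came from separate collections. The 4-cell libraries were amplified with 13 PCR cycles and the 8-cell TBE and 8-cell libraries with 11, so that cell stage, a further day of culture, the drug and the number of cycles all differ between 4-cell embryos and 8-cell TBE and cannot be told apart.

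The early embryo is run by RNA and protein that the oocyte laid down, and its own genome is switched on in steps, with a minor wave of transcription followed by the major embryonic genome activation, which in cattle falls at about the 8-cell stage. α-Amanitin, a mushroom toxin that binds RNA polymerase II, stops messenger RNA synthesis, and embryos cultured with it go on dividing for a few cell cycles on maternal supplies. ATAC-seq uses the Tn5 transposase to cut DNA that is not wrapped in nucleosomes, so that promoters, enhancers and other regulatory elements that are accessible pile up reads and are called as peaks. A peak list of a blocked embryo therefore shows which elements are open without the products of the embryo's own transcription. Peak positions are on the ARS-UCD1.2 assembly. Genes, promoters and oocyte or embryo marker loci were not assigned to them, since an annotation of that assembly was not used here, so the labelled stages were not checked against marker genes.

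The lists differed in length in the same direction as the comparison. The 4-cell libraries held 42012, 22983 and 14355 peaks, and the 8-cell TBE libraries 90890, 247513 and 50090. The untreated 8-cell libraries held 125253 to 156569 peaks. No read totals were used, so sequencing depth was not measured. Where the fold enrichment and −log10 p of a narrow peak fit a whole-number pileup, they imply a local background count, which can grow with depth or with diffuse cutting. The most frequent such count was taken for each library. It rested on few peaks, 294, 170 and 175 in the 4-cell libraries and 411, 1006 and 867 in TBE libraries 1, 2 and 3. This background level was 0.494, 0.453 and 0.223 reads in the 4-cell libraries and 1.24, 3.82 and 0.347 in 8-cell TBE libraries 1, 2 and 3. TBE library 2 had the highest level, while TBE library 3 fell inside the range of the 4-cell libraries. The level did not order the 8-cell libraries by length, the shortest list having the highest level (1.32). To compare lists of one length, the main comparisons used the 14355 strongest peaks of each library by −log10 p, the size of the smallest of the 6 lists, and the lists as deposited are given beside them.

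The 4-cell libraries also resembled each other poorly. On equal lists, the Jaccard index, the base pairs shared by a pair of lists divided by the base pairs in either, was 0.210 on average between 4-cell libraries (3 pairs, 0.173 to 0.267). It was 0.383 between 8-cell TBE libraries (0.317 to 0.456) and 0.491 between 8-cell libraries (0.467 to 0.510). 4-cell library 1 shared more with each of the 3 GV oocyte libraries (0.312 to 0.393) than with either of the other 4-cell libraries (0.267 and 0.191). Values that move with a single 4-cell or TBE library are given without it beside the main result or in the closing ranges.

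In equal numbers of top peaks, blocked 8-cell embryos had 4-cell regions at shares within the range of another 4-cell library. The top peaks of TBE covered 11.1 Mb on average and those of 4-cell libraries 6.36 Mb. At equal covered length every TBE library lay below every 4-cell library, as given in the next paragraph. Each 4-cell library was held out in turn, and the regions with a peak in both other 4-cell libraries (5131 to 6858 regions on equal lists) were looked up in it and in the other groups. The held-out 4-cell libraries had a peak at 82.2, 74.0 and 62.0% of these regions, and 8-cell TBE libraries 1, 2 and 3 at 77.2, 73.0 and 68.6%. All 3 TBE values lay inside the range of the 4-cell values. The means were 73.0% ± 4.28 (SD, n = 3) for 8-cell TBE and 72.7% ± 10.2 (SD, n = 3) for 4-cell, a difference of 0.217 percentage points (exact two-sided permutation test, p = 1.0, where 3 libraries against 3 cannot go below 0.1). Untreated 8-cell libraries reached 56.0, 55.1 and 53.7%, below every TBE library, and GV oocyte libraries 68.7 to 76.7%. The sign of the small difference between TBE and 4-cell turned without TBE library 1 (−1.90 points).

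A fixed number of top peaks is a ranking, in which newly opened regions push older ones off the list. On the lists as deposited, untreated 8-cell libraries still had a peak at 90.2, 87.4 and 88.5% of 4-cell regions, so that most of these regions still had a peak. TBE libraries had a peak at 95.6, 98.5 and 87.7%, and held-out 4-cell libraries at 92.3, 70.8 and 46.5%, in the order of their numbers of peaks. TBE libraries exceeded 4-cell libraries by 24.1 points on these lists (exact permutation test, p = 0.2). With top peaks taken to the same covered length in place of the same number, the difference was −16.2 points. TBE libraries then had a peak at 56.7% and 4-cell libraries at 72.9% (exact permutation test, p = 0.1), every TBE library below every 4-cell library. The same order held with peaks limited to a −log10 q of at least 3 (57.6 against 69.1%, exact permutation test, p = 0.1).

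**Figure D1:**
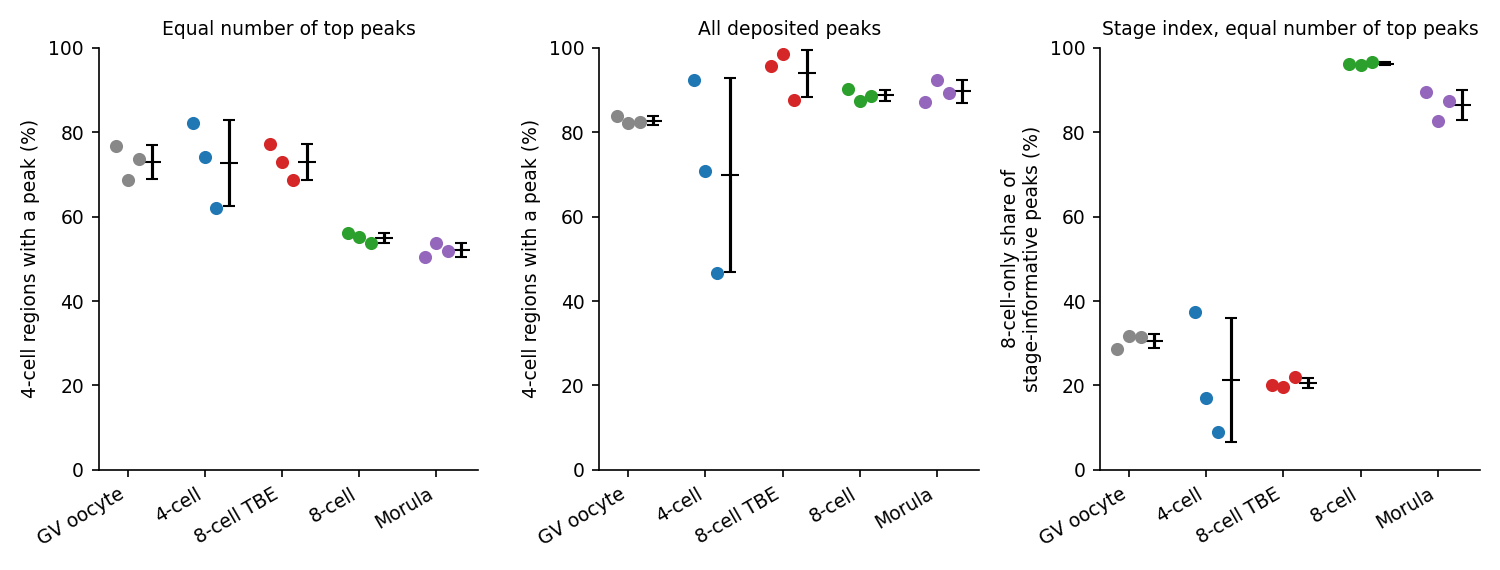
Percentage of 4-cell regions with a peak in each library (left, 14355 top peaks per library; middle, all deposited peaks) and the percentage of 8-cell-only peaks among stage-informative peaks (right, top peaks), by group; points are libraries and bars the mean ± SD of 3. On equal lists 8-cell TBE lie at 68.6 to 77.2%, among the 4-cell libraries. The TBE top peaks cover 11.1 Mb on average, against 6.36 Mb in 4-cell libraries. The stage index of TBE, 19.5 to 22.0%, also lies among the 4-cell libraries, as does that of GV oocytes. The 8-cell libraries lie apart at 95.8 to 96.6%.

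The share of 4-cell regions kept rose with their strength at the 4-cell stage, in 8-cell TBE as in 4-cell libraries. The regions were divided into 5 bins of equal number by their mean fold enrichment, the pileup of a peak over its local background, in the 4-cell libraries that defined them. On equal lists, TBE libraries had a peak at 56.0% ± 5.70 (SD, n = 3) of the weakest bin and at 88.0% ± 2.63 of the strongest, and held-out 4-cell libraries at 55.4% ± 6.85 and 92.7% ± 7.02. The curves of these groups overlapped within 1 SD in every bin. Untreated 8-cell libraries ran lower in every bin of the equal lists, from 33.0% ± 0.505 to 78.8% ± 3.53. On deposited lists the order differed. There the 8-cell means ran from 73.7% ± 3.62 to 96.3% ± 0.730, above those of held-out 4-cell libraries in every bin (49.6% ± 29.6 to 90.6% ± 11.3). TBE means were the highest, from 86.3% ± 12.4 to 97.8% ± 1.81.

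**Figure D2:**
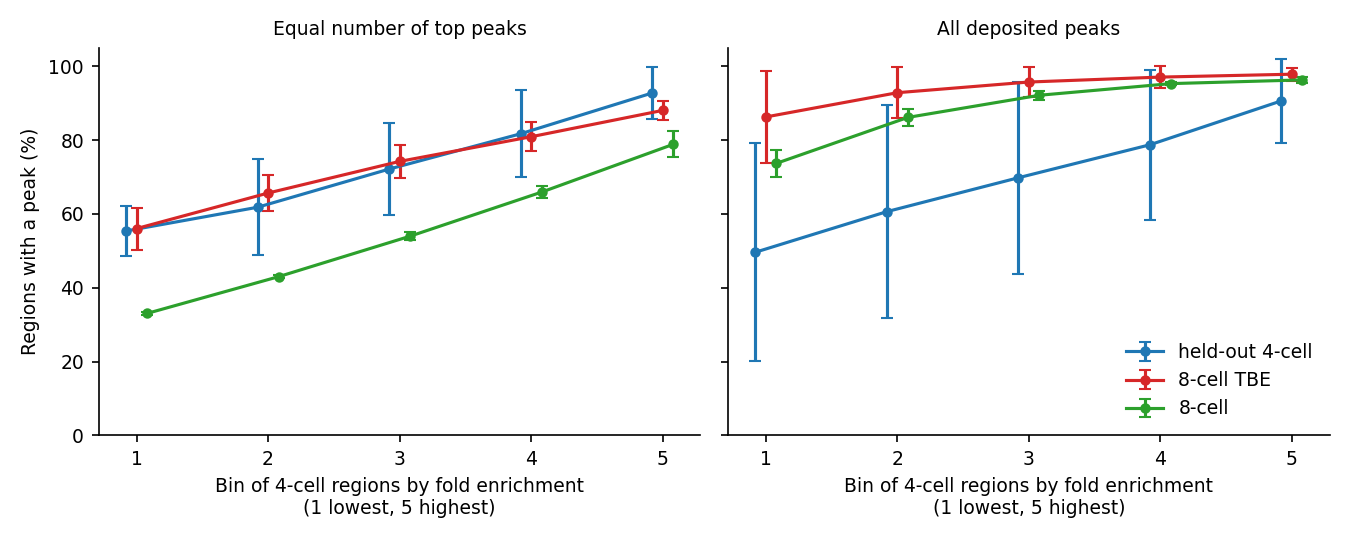
Percentage of 4-cell regions with a peak (vertical axis) by bin of 4-cell fold enrichment (horizontal axis, 1 lowest to 5 highest) in held-out 4-cell, 8-cell TBE and 8-cell libraries, as mean ± SD of 3 libraries, on equal lists (left) and all deposited peaks (right). On equal lists the TBE curve runs from 56.0 to 88.0% along the 4-cell curve and the 8-cell curve from 33.0 to 78.8% beneath both. On deposited lists the 8-cell curve runs from 73.7 to 96.3%, above the 4-cell curve (49.6 to 90.6%) and beneath the TBE curve (86.3 to 97.8%).

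Both the 4-cell regions that the oocyte already had and those it lacked were found in 8-cell TBE. Most 4-cell regions overlapped a region of GV oocytes (peaks in at least 2 of the 3 libraries). At these, on equal lists, TBE libraries had a peak in 78.3% ± 4.38 (SD, n = 3), 4-cell libraries in 81.2% ± 12.8 and 8-cell libraries in 66.6% ± 1.41. The 1333 to 1687 regions with no GV oocyte counterpart set the groups further apart. TBE libraries had a peak at 61.0, 57.9 and 53.1% of them, held-out 4-cell libraries at 49.6, 52.1 and 41.4%, and 8-cell libraries at 19.4 to 20.8%. Every TBE library was above every 4-cell library there (difference 9.66 points, exact permutation test, p = 0.1, the smallest possible) and above every 8-cell library (37.3 points, p = 0.1). The same order of TBE over 4-cell held on the deposited lists (78.3% ± 16.0 against 36.4% ± 18.9, exact permutation test, p = 0.1). There every TBE list is longer than every 4-cell list, and the 8-cell mean, 58.2% ± 3.77, was also above that of 4-cell libraries. On equal lists TBE peaks cover more base pairs than 4-cell peaks. The split was not repeated at equal covered length, so the part of list length and peak width in this order was not tested. The split of regions by oocyte peaks was made with the values already known.

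When peaks that tell 4-cell from 8-cell embryos apart were counted, 8-cell TBE fell within the spread of the 4-cell embryos, as GV oocytes did. For each held-out number, 4-cell-only regions had a peak in both other 4-cell libraries and in neither of the other 8-cell libraries (2078 to 2526 regions), and 8-cell-only regions the reverse (5214 to 6171). The stage index is the percentage of 8-cell-only peaks among all peaks of a library that overlap either set. It was 20.1, 19.5 and 22.0% in the 8-cell TBE libraries, against 37.5, 17.1 and 9.0% in 4-cell libraries 1, 2 and 3 and 96.2, 95.8 and 96.6% in the 8-cell libraries. TBE libraries thus stood within the spread of the 4-cell libraries and far from the untreated embryos of their own stage. The mean of 20.5% ± 1.26 (SD, n = 3) differed from that of 4-cell libraries by −0.639 points (exact permutation test, p = 1.0) and from that of 8-cell libraries by −75.7 points (p = 0.1, adjusted 0.35 over 7 tests). GV oocyte libraries had an index of 28.6 to 31.7%, also inside the spread of the 4-cell libraries, and morulae of 82.6 to 89.5%. The index thus sets TBE apart from 8-cell embryos but does not tell a 4-cell from an oocyte list. The direction against 4-cell rests on 4-cell library 1, without which TBE lay 1.04 points above.

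Taken by components, peaks at 4-cell-only regions made up 10.6, 10.0 and 9.24% of the top peaks of the TBE libraries, 8.71 to 9.13% in 4-cell libraries and 1.05 to 1.35% in 8-cell libraries. Peaks at 8-cell-only regions made up 2.68, 2.44 and 2.60% in TBE libraries and 30.1 to 34.3% in 8-cell libraries. The 4-cell libraries held 5.48, 1.87 and 0.857% of such peaks, so that TBE libraries lay between 4-cell library 1 and the others. On deposited lists the index was high in every group, at 96.0 to 97.6% in TBE, 83.8 to 98.0% in 4-cell and 99.7 to 99.8% in 8-cell libraries. The sets were very unequal there, with 416 to 1047 4-cell-only and 63423 to 82685 8-cell-only regions, so that the index separates the stages little.

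On equal lists, TBE shared more base pairs on average with 4-cell than with 8-cell embryos, with a wide spread between 4-cell libraries, and on deposited lists the order was the opposite. The mean Jaccard index with 4-cell libraries was 0.218, 0.179 and 0.223 for TBE libraries 1, 2 and 3, and with 8-cell libraries 0.168, 0.148 and 0.147. All 3 TBE libraries were nearer to the 4-cell lists on average. The difference of 0.0528 was within the spread of the control lists (exact permutation test over the labels of the 6 control libraries, p = 0.4). 4-cell library 3, with the fewest peaks, had an index of only 0.120 to 0.154 with TBE. Without it the difference was 0.0869 (exact permutation test, p = 0.1), and without 4-cell library 1 it was 0.0174 (p = 0.7). The mean index with GV oocyte lists was higher than with 4-cell lists in all 3, at 0.250, 0.201 and 0.237. On deposited lists the means were 0.111 with 4-cell and 0.124 with 8-cell lists. There TBE libraries 1 and 2 shared less with 4-cell (0.117 and 0.0490) than with 8-cell lists (0.148 and 0.109), whereas TBE library 3, with a background level in the 4-cell range, shared more (0.168 against 0.117).

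**Figure D3:**
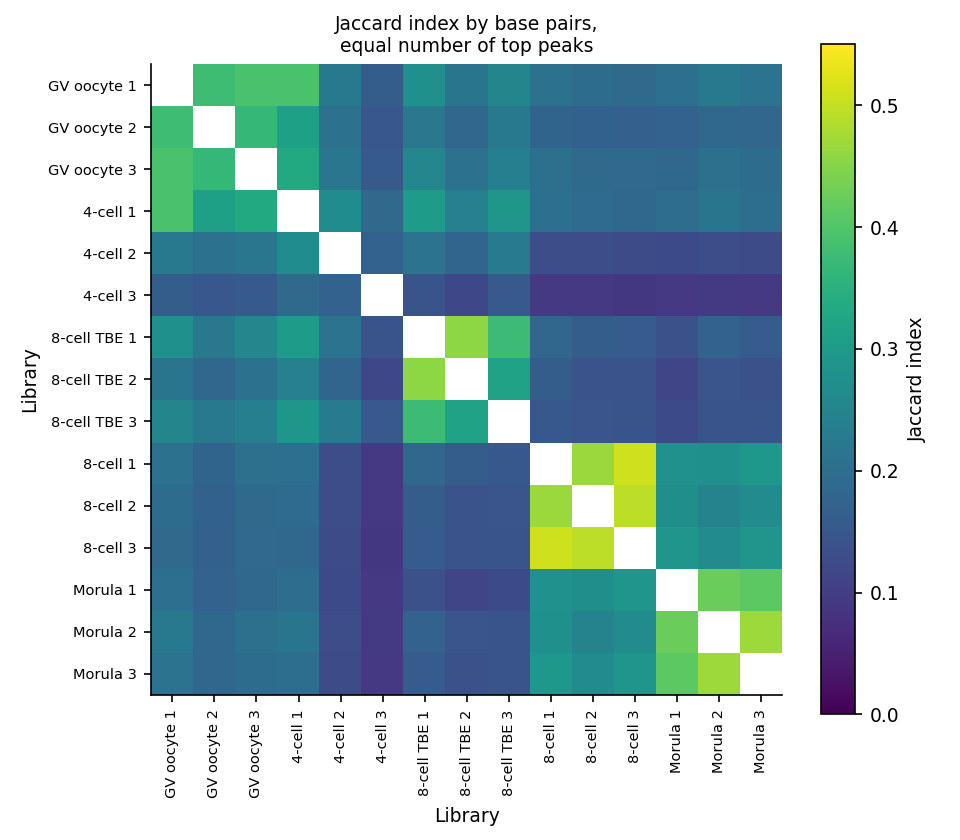
Jaccard index by base pairs between each pair of libraries (both axes) on the 14355 top peaks of each; color gives the index and the diagonal is blank. The 8-cell TBE libraries share 0.317 to 0.456 among themselves, 0.120 to 0.303 with 4-cell, 0.181 to 0.275 with GV oocyte and 0.141 to 0.181 with 8-cell libraries.

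Peaks with no counterpart in other 4-cell libraries made up 42.0% ± 3.04 (SD, n = 3) of the top peaks of TBE, 47.0% ± 5.96 of those of 4-cell and 61.8% ± 1.23 of those of 8-cell libraries. By library, 38.6, 42.9 and 44.5% in TBE libraries overlapped no peak of a pair of 4-cell libraries. For 4-cell libraries scored against the pair without them the values were 41.8, 45.7 and 53.5%, and for 8-cell libraries 60.4 to 62.5%. TBE libraries had 5.02 points fewer such peaks than 4-cell libraries (exact permutation test, p = 0.3) and 19.8 points fewer than 8-cell libraries (p = 0.1). On deposited lists TBE libraries had 22.7 points more than 4-cell libraries (exact permutation test, p = 0.2), with 86.2% in TBE library 2 and 60.4% in TBE library 3.

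Peaks of blocked embryos tended to be broader than those of 4-cell embryos. The median width was 536.5, 639 and 319 bp in TBE libraries 1, 2 and 3 and 377, 338 and 262 bp in the 4-cell libraries. TBE library 3 was narrower than 2 of the 4-cell libraries. The difference in means of 172.5 bp was within the spread between libraries (exact permutation test, p = 0.3), and was 102 bp without TBE library 2 and 262 bp without TBE library 3. Within both groups, width had the order of the background level. On equal lists the medians were 701, 839 and 326 bp against 395, 279 and 262 bp (exact permutation test, p = 0.2). Untreated 8-cell libraries had medians of 421, 353 and 352 bp on deposited lists and of 562, 471 and 494 bp on equal lists. On equal lists they too were broader than every 4-cell library, so this breadth was not particular to TBE.

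What became of the 4-cell regions was then followed one by one. Of the 15117 regions with a peak in at least 2 of the 3 4-cell libraries, 12471 overlapped both an 8-cell TBE region and an 8-cell region of the deposited lists. A further 1722 overlapped a TBE region only, 333 an 8-cell region only and 591 neither. In all, 93.9% were open in TBE. Among the 2313 that were closed at the 8-cell stage, 74.4% were open in TBE, with a peak at 71.1, 91.5 and 47.5% of them in TBE libraries 1, 2 and 3. TBE library 3, the one with a background level in the 4-cell range, had the lowest share. The 3 8-cell libraries had a peak at 9.30 to 16.7%. That share is low by the choice of regions, which overlap no region with a peak in at least 2 8-cell libraries, so it is no contrast to TBE. The 74.4% was 48.6% without TBE library 1 and 44.7% without TBE library 2. On equal lists, 3338 of 9259 regions were in both, 2920 in TBE only, 1044 in 8-cell only and 1957 in neither.

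The regions that TBE kept and normal 8-cell embryos did not were set against oocytes and morulae. On deposited lists, 37.0% of the 1722 regions in TBE only overlapped a GV oocyte region and 38.3% a morula region, against 85.3 and 96.1% of the 12471 in both. The shares on equal lists were 57.1 and 17.7% of the 2920 regions in TBE only, against 89.8 and 77.8% of the 3338 in both. Of the regions in neither, 11.3% overlapped a GV oocyte region on deposited lists (591 regions) and 35.6% on equal lists (1957 regions). Of the 333 regions that 8-cell embryos kept and TBE did not on deposited lists, 86.8% overlapped a morula region. Held-out libraries were then compared at the 4-cell regions without any 8-cell peak on the same kind of list. On equal lists, TBE libraries had a peak at 66.3, 62.8 and 57.0% of these 1885 to 2375 regions, and held-out 4-cell libraries at 61.2, 57.9 and 49.1% (difference 6.01 points, exact permutation test, p = 0.3). On deposited lists such regions numbered 309 to 894. There TBE libraries had a peak at 67.2, 88.7 and 44.2%, and held-out 4-cell libraries at 35.9, 20.9 and 12.1% (difference 43.7 points, exact permutation test, p = 0.1). Every TBE list is longer there than every 4-cell list, and this comparison was not run at equal covered length.

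TBE chromatin also held regions that no 4-cell library had. On deposited lists, 48610 of 82048 TBE regions (peaks in at least 2 TBE libraries) overlapped no 4-cell peak. Of these, 13100 (26.9%) overlapped an 8-cell region, 35.7% a morula region and 10.3% a GV oocyte region. A set of 11239 (23.1%) overlapped no peak in any of the other 27 libraries. The same shares were not computed over all 82048 TBE regions, so these values do not set the new regions apart from TBE regions in general. The 48610 became 17326 without TBE library 1 and 11747 without TBE library 2, of which 36.8 and 43.8% overlapped an 8-cell region. The 11239 became 3220 and 1686. On equal lists, where a missing peak can lie further down the full list of a library, 3583 of 12879 TBE regions overlapped no 4-cell peak. Of these, 8.09% overlapped an 8-cell, 5.75% a morula and 13.9% a GV oocyte region, and 1464 (40.9%) overlapped no top peak of any other library.

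**Figure D4:**
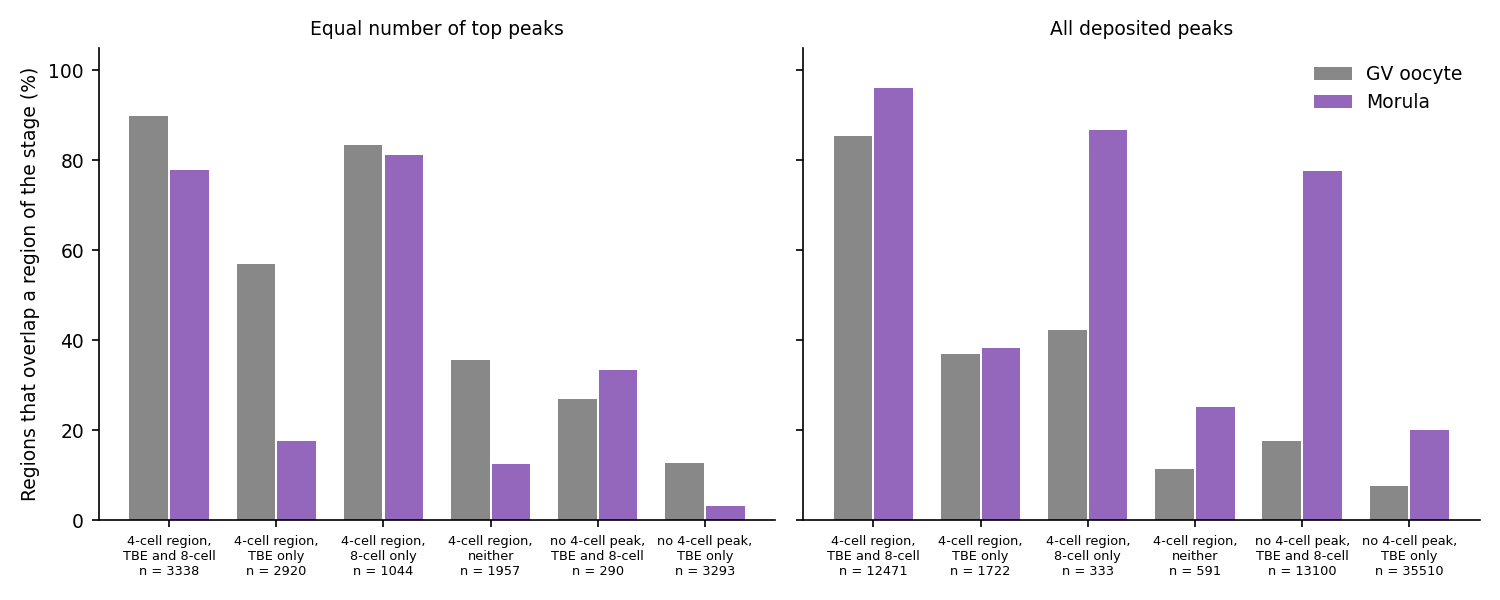
Percentage of regions of each class that overlap a GV oocyte or a morula region (peaks in at least 2 libraries), for 4-cell regions sorted by presence in 8-cell TBE and 8-cell regions and for TBE regions with no 4-cell peak, on equal lists (left) and deposited lists (right); n is the number of regions, with no replicate error. Regions in TBE but not 8-cell embryos overlap GV oocyte regions in 57.1% (left) and 37.0% (right).

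Seen from the normal course of development, few of the regions that opened between the 4-cell and 8-cell stages were open in blocked embryos. Of 93738 8-cell regions without any 4-cell peak on deposited lists, 15.1% overlapped a TBE region, and 7.55 and 5.90% did so without TBE library 1 and TBE library 2. TBE libraries 1, 2 and 3 had a peak at 14.0, 30.9 and 7.71% of them and GV oocyte libraries at 4.74, 4.93 and 5.52%, so that every TBE library was above every oocyte library (difference 12.5 points, exact permutation test, p = 0.1). GV oocyte library 3 had a background level of 0.507 and 44678 peaks, beside 0.347 and 50090 in TBE library 3. The part of list length and of background level in this difference was not tested. On equal lists the order was the opposite. There the share was 4.16, 4.05 and 4.35% in TBE libraries and 4.78, 4.95 and 5.03% in GV oocyte libraries (difference −0.733 points, exact permutation test, p = 0.1), over 7453 regions.

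Complete separation of the groups was rare in either direction. Over the 282185 regions that the 6 deposited lists formed when merged, 10927 (3.87%) had a peak in all 3 TBE and no 4-cell library, and 7 (0.00248%) had a peak in all 3 4-cell and no TBE library. The numbers on equal lists were 1389 (3.56%) and 418 (1.07%) of 39043 regions. On deposited lists every TBE library held more peaks than every 4-cell library. TBE libraries also matched each other better than 4-cell libraries did (mean Jaccard index 0.183 against 0.147 on deposited and 0.383 against 0.210 on equal lists). The parts of list length and of this match in the counts were not tested.

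When the 8-cell libraries were merged in as well, 4 kinds of region could be set apart on the deposited lists. Regions in all 3 4-cell, all 3 TBE and all 3 8-cell libraries numbered 5142, with a median fold enrichment of 4.66 over the 4-cell and TBE libraries. Of the 5457 regions in all 4-cell and all TBE libraries, a set of 57 (1.04%) was in no 8-cell library. In this merge, 10893 regions were in all TBE and no 4-cell library, and 52.8% of them were morula regions. Of the 10893, 3535 were in all 8-cell libraries, and 88.5% of these were morula regions. A further 4279 (39.3%) were in no 8-cell library, with a median of 3.33 over the TBE libraries, and 18.6% of these were morula regions. The balance was the opposite on equal lists, where a missing peak can lie further down the full list of a library. There, of 2901 regions in all 4-cell and all TBE lists, 642 (22.1%) were in no 8-cell list. Of 1386 in all TBE lists and no 4-cell list, 77 were in all 8-cell lists and 1117 (80.6%) in none. With 1 library left out a region needs fewer lists to qualify. The 57 became 113, 190 and 317 without 4-cell library 1, 2 or 3, and the 3535 became 8453 without 4-cell library 1 and 7637 without TBE library 3. The 4279 became 8426 without TBE library 1 and 23826 without TBE library 3. These repeats were added once the data were known.

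The strongest region on a numbered chromosome that was retained in TBE and absent from 8-cell libraries lay on chromosome 14, from 79419190 to 79419525. It had a fold enrichment of 5.65, 4.56 and 5.37 in the 4-cell libraries and of 6.84, 5.94 and 8.32 in TBE libraries, and no peak in GV oocytes or morulae. A region of chromosome 8 from 48186551 to 48186942 had the same pattern, with 5.90, 4.67 and 4.05 at the 4-cell stage and 7.60, 6.88 and 6.67 in TBE. In both, every TBE library was above every 4-cell library. The 2 strongest retained regions lay on unplaced scaffolds, and the remaining one of the 5 is the chromosome 1 region called by limma.

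Of the regions that TBE gained together with normal 8-cell embryos, the strongest lay on chromosome 14, from 53088824 to 53090008. Its fold enrichment was 6.48, 5.37 and 4.98 in TBE libraries and 10.1, 10.1 and 12.0 in 8-cell libraries, so that TBE libraries were lower throughout. On chromosome 6, from 42750245 to 42750814, the values were 7.71, 6.71 and 7.43 in TBE and 6.85, 6.36 and 9.78 at the 8-cell stage, which overlap. Every morula library (3 of 3) had a peak at both. The chromosome 6 region was also called in 2 GV oocyte libraries and in 1 of 4-cell TBE. A region of chromosome 26 from 17387985 to 17388372 (6.83, 5.96 and 6.98 in TBE, 8.32, 6.41 and 8.45 in 8-cell libraries) and one of chromosome 4 from 22185881 to 22186821 (8.36, 5.61 and 5.59 against 7.40, 7.32 and 7.29) completed the leading regions on chromosomes.

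Some regions were open in TBE alone. On chromosome 10, from 79717256 to 79717610, TBE libraries had a fold enrichment of 6.86, 6.29 and 7.96, and on chromosome 15, from 36321586 to 36322033, of 6.94, 6.49 and 7.51. In neither was there a peak in any of the other 27 libraries. Another region, on chromosome 5 from 14357911 to 14358293 (8.86, 5.55 and 6.51), was also seen in 1 morula and 2 inner cell mass libraries. In the opposite direction, 6 regions of the 9 merged lists were in every 4-cell library and in no TBE library. The strongest was on chromosome 22, from 47145177 to 47145463, with 7.24, 4.32 and 7.62 in 4-cell libraries and a peak in 2 8-cell and 2 GV oocyte libraries. The next, on chromosome 1 from 116557342 to 116557640 (5.27, 4.64 and 5.97), had no 8-cell peak.

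Peak strength was compared where all 6 libraries had a peak. Of 5452 such regions tested with limma on quantile normalized log2 fold enrichment, 4 (0.0734%) were higher and 24 (0.44%) lower in TBE at a Benjamini-Hochberg adjusted p under 0.05, with 444 and 451 at an unadjusted p under 0.05. The middle range of differences ran from −0.16 to 0.17 on the log2 scale, and 1 region differed by 1 or more. Tested on −log10 p in place of fold enrichment, 91 were higher and 168 lower. No region was called when TBE library 1 or TBE library 2 was left out. Without 4-cell library 2 or 3 the calls were 0 higher and 1 lower, without 4-cell library 1 they were 1 and 2, and without TBE library 3 they were 6 and 15.

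The region with the largest rise lay on chromosome 1, from 104845676 to 104846075, with a fold enrichment of 4.28, 4.33 and 3.89 in 4-cell and 9.30, 7.55 and 7.17 in TBE libraries. The log2 difference was 0.97 ± 0.18 (SE; limma adjusted p = 0.0434), and no 8-cell library had a peak there. On chromosome 18, from 55402986 to 55403369, values of 3.91, 3.59 and 3.73 rose to 8.11, 5.65 and 5.98 (log2 difference 0.88 ± 0.17), and 8-cell libraries had 7.20, 6.69 and 6.03. The other regions called higher were on chromosome 19 from 9427555 to 9427903 (log2 difference 0.81 ± 0.17) and chromosome 16 from 29020266 to 29021406 (0.76 ± 0.15).

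The largest fall was on chromosome 3, from 16506179 to 16507271. The 4-cell libraries had 8.50, 5.33 and 6.68 and TBE libraries 3.06, 2.45 and 3.49, a log2 difference of −1.06 ± 0.16 (SE; limma adjusted p = 0.0363), with 4.88 to 5.58 in 8-cell libraries. On chromosome 21, from 20575571 to 20577705, values of 6.32, 6.38 and 5.78 fell to 3.31, 2.69 and 3.18 (log2 difference −0.91 ± 0.16), beside 8.84, 9.31 and 11.5 in 8-cell libraries. On chromosome 7, from 43587857 to 43590026, they fell from 5.84, 6.19 and 4.85 to 2.78, 2.25 and 3.15 (−0.89 ± 0.16). The other 2 of the 5 largest falls were on chromosome 9 from 25560365 to 25563372 (−0.87 ± 0.16) and chromosome 24 from 56681346 to 56683810 (−0.87 ± 0.16).

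All 24 lowered regions had a peak in every GV oocyte, 8-cell and morula library, beside 88.4, 93.9 and 94.0% of the regions tested. They were also regions over which TBE peaks were wide. The median length covered by peaks was 387 bp in 4-cell and 1393 bp in TBE libraries, against 515 and 1080 bp over all regions tested. The ratio of TBE to 4-cell length, taken region by region, had a median of 3.42 in the lowered regions and of 1.91 in all regions tested. Fold enrichment of a broad peak is an average along it, and the part of width in these calls was not tested.

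**Figure D5:**
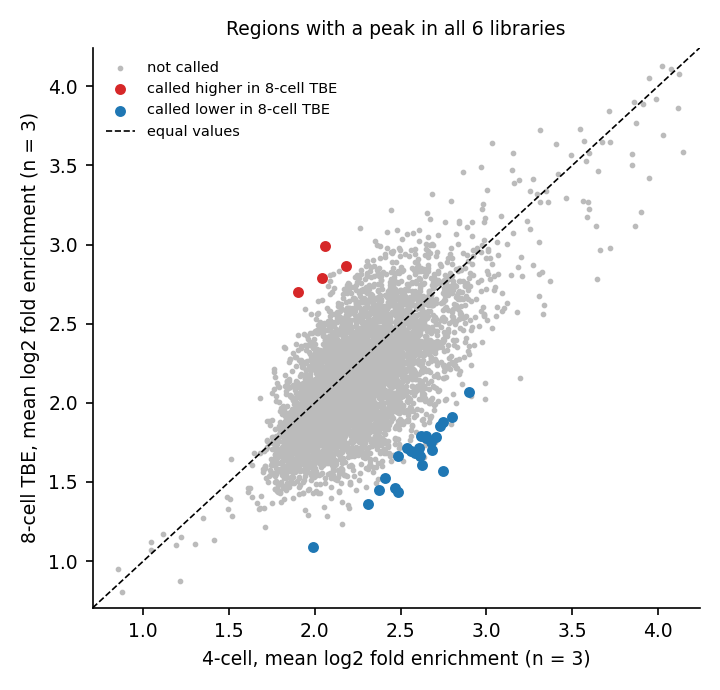
Mean log2 fold enrichment as deposited in 4-cell (horizontal axis) and 8-cell TBE libraries (vertical axis) at the 5452 regions with a peak in all 6 libraries; each point is a region, the dashed line marks equal values, and regions called by limma are colored. The 4 regions called higher in TBE lie above the line and the 24 called lower lie under it.

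The spread of peaks over chromosomes moved in TBE in ways that mostly depended on the lists. On equal lists, the share of peaks on a chromosome was higher in every TBE than in every 4-cell library for 7 of 31 (22.6%) and lower for 12 (38.7%), counting the 29 autosomes, X and the unplaced scaffolds together. On deposited lists the numbers were 8 (25.8%) and 3 (9.68%). Chromosome 24 was higher on both (mean 2.77 against 2.26% on equal and 3.08 against 2.50% on deposited lists), and chromosomes 22 and 28 were lower on both. Chromosome 6 was lower on equal lists (3.08 against 3.36%) and higher on deposited lists (3.95 against 3.46%). With exact permutation tests adjusted over 31 comparisons, the smallest adjusted p was 0.163 on equal and 0.282 on deposited lists. The chromosome shares were added once the data were known.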

How the data were processed

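ATAC-seq peaks were compared by group between 8-cell TBE and 4-cell libraries, 3 each. The submitters' processing notes name Trim Galore, BWA 0.7.17, SAMtools 1.7, MACS2 2.1.1 and the ARS-UCD1.2 assembly. Each deposited list belongs to 1 library. Its columns hold a fold enrichment, which is a ratio of pileup to local background, and the −log10 of p and q values, as deposited by the authors; MACS2 adds 1 to both terms of the ratio, so that fold, −log10 p and width can move with depth.

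Peaks sharing 1 bp were counted as overlapping, and regions were merged peaks of at least 2 libraries. Tests were exact two-sided permutation tests over libraries (Python 3.11.15, numpy 2.4.6), adjusted over 7 comparisons, and limma 3.58.1 in R 4.3.3 on log2 fold enrichment. Embryos of a collection were divided between TBE and untreated culture, so TBE and 8-cell libraries share collections, although the labels do not say which libraries pair; the tests treat them as separate and measure the spread between libraries. Interval operations and limma fits were tested on simulated data. Named regions were the 5 strongest by mean fold enrichment in each of 4 presence classes, and the 5 largest limma changes in each direction; those on unplaced scaffolds are not given by position. Groups came from the sample labels. Members and lists were chosen with earlier results of these data known. Promoters were not analysed, since the annotation at hand is of another assembly. Replicate numbers were not used as a block, since same-numbered 4-cell and TBE libraries deviated from their group means with correlations of 0.133, 0.0551 and 0.145 across regions.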

Additional observations from a re-analysis of the deposited data

How the results depend on the processing

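Against 8-cell libraries, TBE kept a lower mean stage index and fewer peaks outside 4-cell lists on average under every setting run. On deposited lists these differences were −3.18 points (exact permutation test, p = 0.1) and −11.4 points (p = 0.4). For peaks outside 4-cell lists, TBE library 2 (86.2%) was there above every 8-cell library (82.2 to 86.1%). The differences from 4-cell libraries did not keep a sign or size. That in 4-cell regions open was 24.1 percentage points on deposited lists and 13.9 with 50% overlap, and turned to −16.2 percentage points with equal covered length, −11.5 with a −log10 q of at least 3, −1.28 with a fold enrichment of at least 3 and −9.22 with top peaks by fold enrichment. The stage index difference turned to 5.24 with all deposited peaks, 4.64 by fold enrichment and 0.936 with 50% overlap, and that of peaks outside 4-cell lists, −13.7 with equal covered length, to 22.7, 1.94 and 7.29 under the same 3 settings and to 7.48 with the q limit. The Jaccard difference turned to −0.0130 on deposited lists.

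Leaving out 1 library at a time gave −1.90 to 4.49 for 4-cell regions open, −5.27 to 1.04 and −77.8 to −66.5 for the index against 4-cell and 8-cell, −6.29 to −0.373 and −21.1 to −13.1 for peaks outside, 0.0174 to 0.0869 for the Jaccard difference and 102 to 262 bp for width. It gave 81.0 to 97.0% of 4-cell regions open in TBE, 44.7 to 78.1% of those closed at the 8-cell stage, 11747 to 62113 new regions with 27.2 to 43.8% of them open at the 8-cell stage, and 0 to 6 regions higher and 0 to 15 lower by limma.

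Of 4-cell regions, 67.6% were open in TBE on equal lists, 81.2% with the fold limit, 79.3% with regions from any replicate and 81.9% in TBE library 3 alone, a setting added after the data were seen. Of those closed at the 8-cell stage, 51.5% were open with the fold limit and 47.5% in TBE library 3. New regions numbered 3583 on equal lists, 15500 with the q limit, 14659 with the fold limit, 225037 from any replicate, 10927 from all 3 and 26523 in TBE library 3. The share of them open at the 8-cell stage was 8.09% on equal lists, 42.4% with the q limit and 36.4% with the fold limit.

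limma called 26 regions higher and 50 lower with median centring, 91 and 168 on −log10 p, and 0 and 0 over 14683 regions present in at least 2 libraries of each group (1039 and 929 at an unadjusted p under 0.05). With the replicate number as a block it called 73 and 108. Each library correlated best with its own number, but not all correlations passed 0.1, so the numbers are not taken as pairs. Under the block the permutation results kept their values, and a sign-flip test over 3 pairs cannot go below 0.25. Promoter alternatives were not run. The cause of these changes was not tested, and sequencing depth, which bears on what a list can detect, was not measured.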
